A study of Mus musculus with 5 samples.

Results

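The genes of major histocompatibility complex (MHC) class II antigen presentation were followed in bone-marrow-derived macrophages of BalbC mice through a time course of lipopolysaccharide (LPS), on 5 two-channel expression arrays. Members were chosen by symbol: the class II chains (H2-A, H2-E, H2-DM and H2-O genes), Cd74 and Ciita, where a probe belonged to 1 gene and had a value on all 5 arrays. Of 12 such genes looked for, 6 were measured, by 8 probes, among 8692 genes measured in all. They were H2-Aa (2 probes), H2-Eb1, H2-DMa (2 probes), H2-DMb1, H2-DMb2 and Cd74. The other 6, H2-Ab1, H2-Ea, H2-Eb2, H2-Oa, H2-Ob and Ciita, had no probe of their own in the array annotation used and were not analysed here. In addition, 1 probe annotated to H2-Aa together with another gene was left out. The macrophages had been differentiated in vitro with human CSF-1, the macrophage growth factor. The 0 h array held macrophages without LPS, and 1 array each held macrophages after 0.5, 2, 7 and 21 h of LPS, a glycolipid of the bacterial outer envelope, from S. minnesota at 10 ug/ml. RNA of C57BL6/J whole embryos of 17.5 days was the second channel on every array. No culture without LPS was measured at the later times, so LPS and time in culture cannot be told apart.

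Class II molecules display peptides from endocytosed proteins to CD4 T cells. H2-Aa and H2-Eb1 encode an alpha and a beta chain of the I-A and I-E molecules that carry the peptide. Cd74, the invariant chain, occupies the groove and guides new class II molecules to endosomes, where H2-DM, a dimer of H2-DMa with a beta chain from H2-DMb1 or H2-DMb2, exchanges the last invariant-chain fragment for antigenic peptide. In macrophages these genes are known to be induced by interferon-gamma through the coactivator CIITA, which is recruited to a promoter module of X and Y boxes. The Y box is bound by NF-Y and holds an inverted CCAAT sequence, read ATTGG on the gene's strand.

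The promoters are shown because this shared module is how class II genes are coordinated, and to set the closely similar neighbours H2-DMb1 and H2-DMb2 side by side. H2-DMa, with 2 starts listed, is not shown, and Cd74 is named only. The 250 bases before the start in RefSeq (GRCm38.p6) lie at chr17:34287824-34288073 (minus strand) for H2-Aa, chr17:34305617-34305866 (plus strand) for H2-Eb1, chr17:34152941-34153190 (plus strand) for H2-DMb1 and chr17:34144999-34145248 (plus strand) for H2-DMb2. Each is written 5′ to 3′ on the gene's strand, with capitals marking ATTGG and TGATG on either strand. TGATG is a short sequence that X boxes of class II genes can hold, and neighbouring or overlapping matches run together in capitals.
H2-Aa: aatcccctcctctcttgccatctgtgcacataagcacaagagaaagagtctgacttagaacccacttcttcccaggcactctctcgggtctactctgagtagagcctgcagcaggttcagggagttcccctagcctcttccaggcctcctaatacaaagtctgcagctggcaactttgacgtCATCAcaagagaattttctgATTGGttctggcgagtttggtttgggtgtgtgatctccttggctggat
H2-Eb1: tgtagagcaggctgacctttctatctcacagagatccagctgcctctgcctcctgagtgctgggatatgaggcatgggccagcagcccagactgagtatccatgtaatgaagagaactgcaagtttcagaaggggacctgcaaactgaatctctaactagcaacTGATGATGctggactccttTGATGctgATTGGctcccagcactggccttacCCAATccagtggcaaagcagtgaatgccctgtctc
H2-DMb1: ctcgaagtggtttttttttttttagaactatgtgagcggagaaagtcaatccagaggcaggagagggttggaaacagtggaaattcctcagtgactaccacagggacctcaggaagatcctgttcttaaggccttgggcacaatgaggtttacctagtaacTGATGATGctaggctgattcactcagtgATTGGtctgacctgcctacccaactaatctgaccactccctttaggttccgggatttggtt
H2-DMb2: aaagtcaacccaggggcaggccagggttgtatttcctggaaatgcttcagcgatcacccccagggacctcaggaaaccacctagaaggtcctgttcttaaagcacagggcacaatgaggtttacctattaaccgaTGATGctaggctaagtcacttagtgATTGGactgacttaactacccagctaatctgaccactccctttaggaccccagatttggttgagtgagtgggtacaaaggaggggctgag
The 4 promoters shown held both motifs. Of the 2 promoters listed for H2-DMa, 1 held both, with ATTGG beginning 198 bases before the start, and the other held neither. The ATTGG nearest the start on the gene's strand began 48 bases before it in H2-Aa, 59 in H2-Eb1, 61 in H2-DMb1 and 90 in H2-DMb2. Of 32851 promoters of this length, 33.8% held ATTGG, 34.5% TGATG and 11.7% both, so such matches are common and are a description, not a binding site. Aligned with free end gaps, the H2-DMb1 and H2-DMb2 promoters were identical at 174 of 209 aligned bases (83.3%), against 59.2% for H2-DMb2 with H2-Eb1. The transcribed sequences of the H2-DMb pair are closely alike too, and whether either probe also bound RNA of its neighbour was not tested.

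Values are log ratios centred on each array's median, in units of the deposited table. Which logarithm they are is not known from the labels or the table, so a unit stands for 2-fold, 2.72-fold or 10-fold under base 2, e or 10. A positive value was read as more RNA in macrophages than in embryos, a likely but unsettled direction. Macrophage markers (12 of 28 measured) had medians from 0.13 to 0.50 and embryonic-tissue markers (30 of 33) from -0.78 to -0.47. At 0 h the myeloid lysozyme gene Lyz2 was at 1.18 units, Fcgr1 at 1.16 and Cd68 at -0.15, and Csf1r and Adgre1 were not analysed here. If it ran the other way, every sign below would turn. With 1 array per time there is no replicate check and no p-value. Error was judged from how far 2 probes of the same gene disagreed (3034 genes). For a change from 0 h, 2 SD of this disagreement came to 0.55, 0.75, 0.46 and 0.47 units on the 0.5, 2, 7 and 21 h arrays. For a gene on 1 probe, a smaller change could not be told apart from probe disagreement, which does not cover cultures, animals or labelling. Means of several probes were held to this single-probe limit, which is too wide for them, so lying within it settles less.

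No class II gene changed beyond that limit at any time. Of the 6 genes, 0 were at least 1 unit from 0 h, next to 1.5%, 2.81%, 0.403% and 0.311% of all genes on the 0.5, 2, 7 and 21 h arrays. Likewise 0 of 6 lay above 2 SD (4.3%, 4.84%, 3.11% and 4.04% of all genes, in order of time) and 0 of 6 below it (0.357%, 0.23%, 3.35% and 2.25%). A count of 0 among 6 genes is close to these background shares. Over all 10 pairs of arrays, each member had 0 differences past 2 SD, next to 5.67% of all differences. For the gene mean of every member, therefore, no pair of arrays, neighbouring in the order of its levels or not, differed beyond the spread. The largest difference was that of H2-DMb1 from 0 h to 21 h, at 1.58 SD. Since outlying probe pairs widen an SD, the spread was also taken from the median absolute deviation, a choice made after the data were seen. With it, 9.87%, 9.0%, 8.58% and 8.63% of all genes lay past 2 spreads at 0.5, 2, 7 and 21 h, and again 0 of 6 class II genes.

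**Figure D1:**
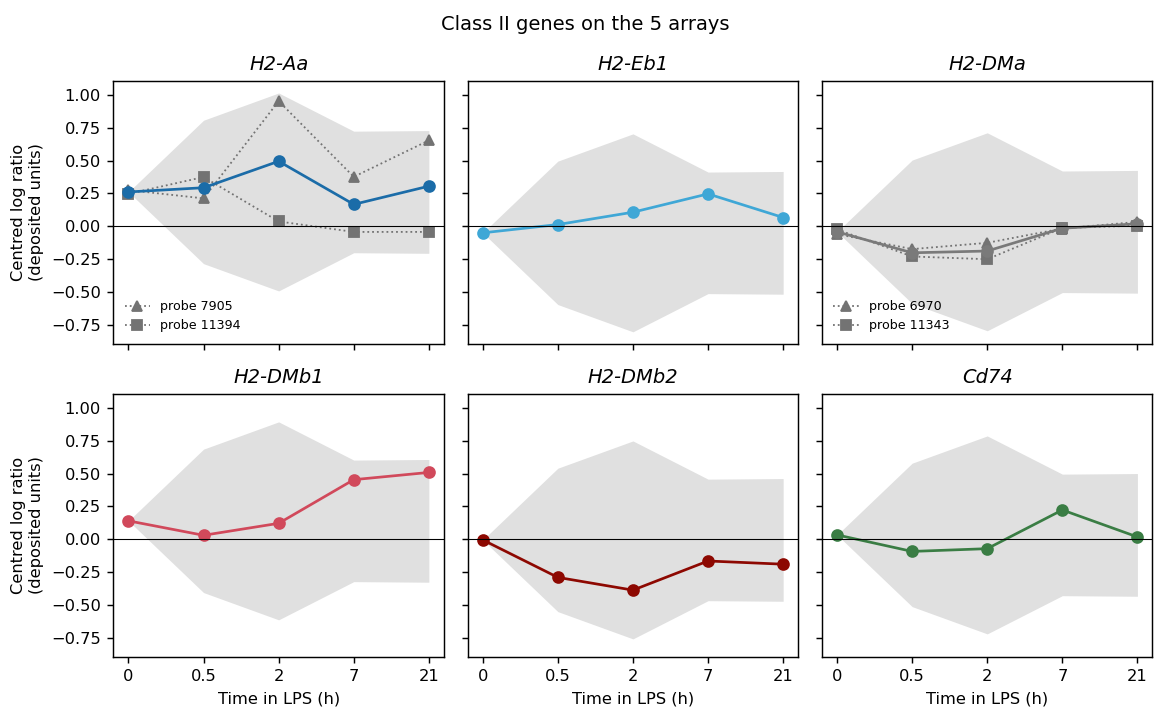
Centred log ratio (deposited units, y axis) of the 6 class II genes on the 5 arrays (time in LPS in hours, x axis, evenly spaced). Coloured points are gene means, grey symbols the single probes of H2-Aa and H2-DMa, and the grey area is 2 SD of probe disagreement around the 0 h value. Every gene mean lies inside its grey area, and the 2 H2-Aa probes part from 2 h on.

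H2-Aa, an alpha chain of the peptide-carrying I-A molecule, had a gene mean of 0.26, 0.29, 0.49, 0.17 and 0.31 units on the 0, 0.5, 2, 7 and 21 h arrays, above 78.9% to 88.7% of all genes. The order from low to high was 7, 0, 0.5, 21 and 2 h. This mean hides probes that disagreed, although both carry the same accession. Probe 7905 read 0.28, 0.21, 0.95, 0.38 and 0.65 units in order of time, and probe 11394 read 0.25, 0.37, 0.04, -0.04 and -0.04. They were within 0.03 units of each other at 0 h, and their changes from 0 h then had opposite signs at all 4 times: -0.06 and 0.13 at 0.5 h, 0.68 and -0.21 at 2 h, 0.10 and -0.29 at 7 h, and 0.38 and -0.29 at 21 h. From 0.5 to 2 h probe 7905 was higher by 0.74 units, past the 2 SD of that pair of arrays (0.65), and probe 11394 lower by 0.34. The direction of H2-Aa was thus not settled by its own probes at any time.

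H2-Eb1, on 1 probe, read -0.05, 0.01, 0.11, 0.25 and 0.07 units on the 0, 0.5, 2, 7 and 21 h arrays. The 0 h array was the lowest and the 7 h array the highest, at 0.30 units above 0 h (1.28 SD). Of all genes, 90.6% had a lower signed change, falls of any size included. From 7 to 21 h it was lower by 0.18 units (1.10 SD). The BalbC and C57BL6/J strains carry different alleles of the polymorphic H2-A and H2-E genes, and whether a probe bound both alike was not tested.

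The 3 peptide-exchange genes of H2-DM did not share 1 course. H2-DMa, the alpha chain, was the steadiest class II gene, with a range over the arrays of 0.22 units that was larger than those of 27.8% of genes. Its mean was -0.04, -0.20, -0.19, -0.01 and 0.02 units in order of time. Here both probes agreed in sign at every time: their changes were -0.11 and -0.21 at 0.5 h, -0.07 and -0.23 at 2 h, 0.04 and 0.01 at 7 h, and 0.09 and 0.03 at 21 h. The 0.5 and 2 h arrays were thus low on both probes, by amounts inside the spread.

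H2-DMb2, a beta chain, read 0.00, -0.29, -0.39, -0.16 and -0.19 units on the 0, 0.5, 2, 7 and 21 h arrays. All 4 LPS arrays were below the 0 h array, with 2 h the lowest. The differences from 0 h were -0.28 units at 0.5 h (-1.04 SD), -0.38 at 2 h (-1.01 SD), -0.16 at 7 h (-0.69 SD) and -0.18 at 21 h (-0.79 SD). At 0.5 h its change was lower than those of all but 2.55% of genes, and at 2 h all but 3.23%, while large changes on these 2 arrays were mostly upwards. All 4 differences use the same 0 h array. Against the 0.5 h array in its place, H2-DMb2 was at -0.10, 0.12 and 0.10 units on the 2, 7 and 21 h arrays. Its sign at the last 2 times thus turned with the baseline. At 0.5 h no other baseline was run, so that sign rests on the 0 h array alone.

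H2-DMb1, the adjacent beta-chain gene, read 0.14, 0.03, 0.12, 0.45 and 0.51 units in order of time. The 7 and 21 h arrays were the high ones, above the ratios of 95.4% and 95.2% of genes. From 0 h the early differences were -0.11 and -0.02 units, and the late ones 0.31 (1.36 SD) and 0.37 (1.58 SD). After subtraction of a running median over neighbouring probe numbers, the late differences were 0.14 and 0.16 units. Its probe stood at number 7720, and 5 of the 8 class II probes had numbers from 6970 to 8599. The change of H2-DMb1 exceeded that of H2-DMb2 by 0.18, 0.36, 0.47 and 0.55 units in order of time. In SDs of a difference between 2 single-probe genes these were 0.45, 0.68, 1.45 and 1.68, so the pair did not part beyond the spread.

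Cd74, the invariant chain, read 0.03, -0.09, -0.07, 0.22 and 0.02 units on the 0, 0.5, 2, 7 and 21 h arrays. Only the 7 h array stood up from the rest, by 0.19 units from 0 h (0.82 SD), and the 21 h value was 0.21 units lower than that at 7 h (1.26 SD). H2-Eb1 and Cd74 thus both had their highest value at 7 h, and in neither did that value pass the spread. After subtraction of a running median over neighbouring probe numbers, the 7 h differences from 0 h were 0.15 units for H2-Eb1 and 0.03 for Cd74.

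**Figure D2:**
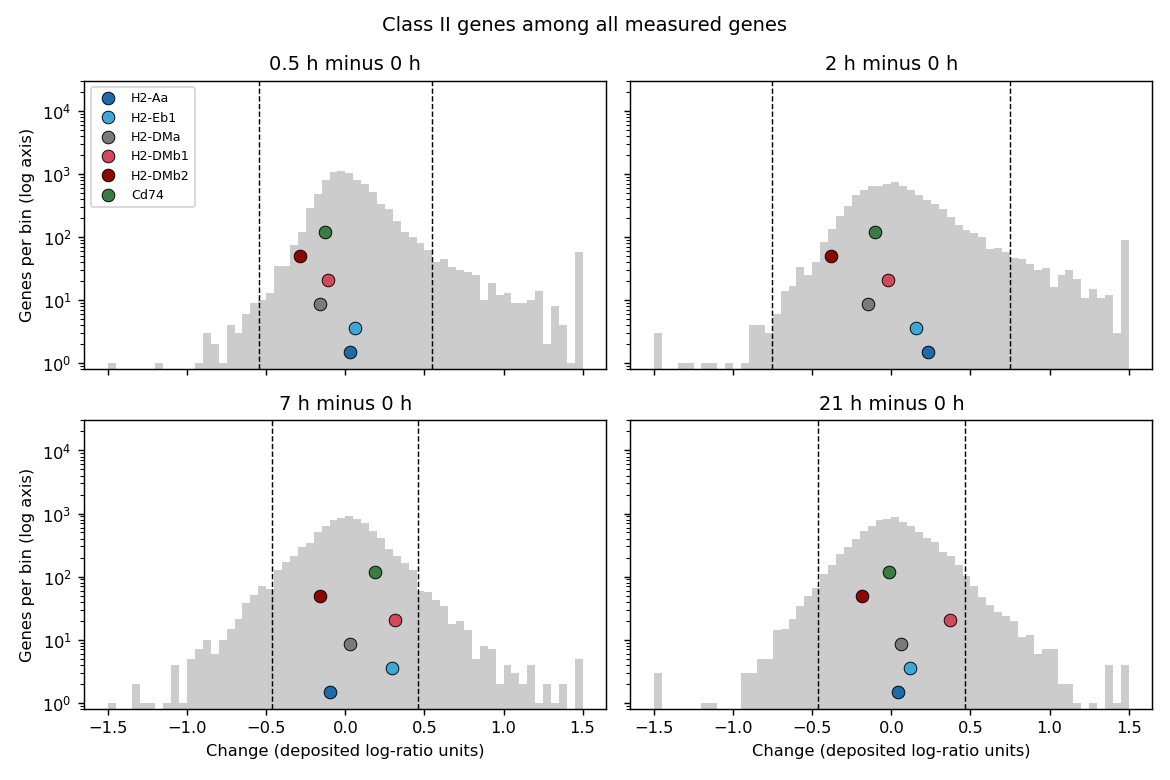
Change from 0 h (deposited log-ratio units, x axis) of all 8692 genes as a grey histogram (genes per bin of 0.05 units, log y axis; changes beyond 1.5 units are drawn in the end bins), at each of 4 times. Coloured points mark the 6 class II genes (their height has no meaning) and dashed lines 2 SD of probe disagreement. All 24 points lie between the dashed lines, with H2-DMb2 in the lower tail at 0.5 and 2 h.

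As a group, the 6 genes had a median change from 0 h of -0.12, -0.06, 0.11 and 0.05 units in order of time, beside 0.01, 0.03, 0.00 and 0.01 for all genes. At 0.5 and 2 h 4 of 6 were negative, beside 4078 and 3938 of 8692 genes. At 7 and 21 h 4 of 6 were positive, beside 4442 and 4536 of 8692. H2-DMa, H2-DMb1, H2-DMb2 and Cd74 were the 4 negative ones at both early times, which use the same 0 h array. Against the 0.5 h array, the 2 h values were 0.01 for H2-DMa, 0.09 for H2-DMb1, 0.02 for Cd74 and -0.10 for H2-DMb2. The median of the 6 genes was then 0.06. Class I presentation genes (14 of 29 listed were measured) had medians of -0.01, 0.11, 0.23 and 0.27 units from 0 h. Of these 14, 0, 1, 4 and 2 lay above 2 SD, beside 4.3%, 4.84%, 3.11% and 4.04% of all genes. Below it lay 1, 2, 0 and 0, beside 0.357%, 0.23%, 3.35% and 2.25% of all genes. Scaling turned the class I median to 0.05 units at 0.5 h (no centring) and to -0.08 and -0.15 at 2 h (quantile normalization and cyclic loess), and the class II median to -0.01 at 21 h (no centring). Embryonic-tissue markers (30 measured) had median changes from 0 h of 0.01, -0.04, 0.15 and 0.15 units in order of time. Those of macrophage markers (12 measured) were -0.04, 0.04, 0.05 and 0.18. The late class II medians were thus no larger than those of embryonic-tissue markers. No test compares these groups.

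H2-DMb2 lies in the stretch of the MHC where class II genes alternate with class I processing genes. Of its 10 RefSeq neighbours on each side, 9 were measured, 5 of them no class II genes. Psmb9, an immunoproteasome subunit next to H2-DMb1, was at 0.02, 1.0, 0.37 and 0.25 units from 0 h in order of time, past 2 SD at 2 h. Its 2 probes were 1.69 and 0.30 units from 0 h there, and the gene was at 0.12 with quantile normalization and -0.01 with cyclic loess, which ends that call. Tap2, a subunit of the peptide transporter for class I, on 1 probe, was at 0.09, 0.24, 0.67 and 0.37 units and past 2 SD at 7 h. Against the 0.5 h array it was at 0.58 units at 7 h, within the 2 SD of that pair of arrays (0.68). Psmb8, another immunoproteasome subunit on 7 probes, was at -0.19, 0.03, 0.28 and 0.20 units, within 2 SD of a single probe. At 7 h its 7 probes were all positive, from 0.03 to 0.53 units. On the other side Rxrb, a retinoid X receptor, was at -0.27, -0.28, -0.15 and -0.34 units, and the cartilage collagen gene Col11a2 at 0.01, -0.01, 0.00 and 0.20. Class II genes on both sides of Tap2 thus stayed within 2 SD at 7 h, when Tap2 passed it against the 0 h array; that difference was not tested.

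**Figure D3:**
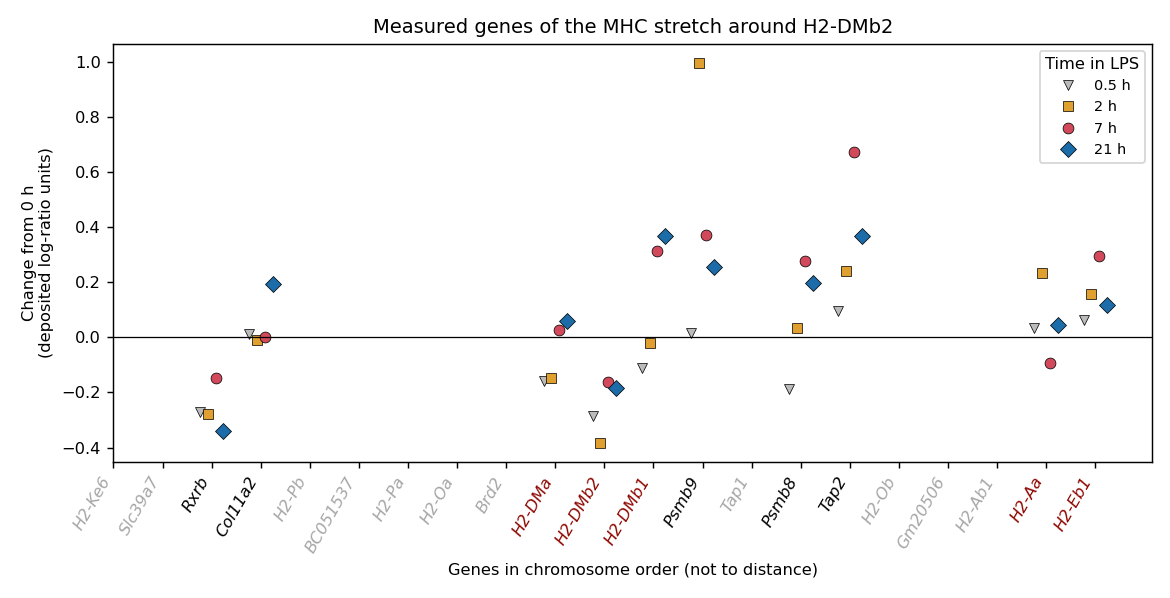
Change from 0 h (deposited log-ratio units, y axis) of the measured genes among the 10 RefSeq neighbours on each side of H2-DMb2, in chromosome order and not to distance (x axis; red names are class II members, grey names were not measured). Psmb9 at 2 h and Tap2 at 7 h reach 1.0 and 0.67 units, and the class II genes lie between -0.38 and 0.37.

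Of the factors that bind the class II promoter module, 4 of 10 listed were measured. Nfya, the NF-Y subunit that contacts the CCAAT sequence, was higher by 0.64 units at 7 h (2.79 SD), on 2 probes of 0.74 and 0.55. Its mean was at 0.00, -0.17 and 0.26 units at 0.5, 2 and 21 h. The probes parted at 2 h (0.04 and -0.39) and at 21 h (0.58, past 2 SD, and -0.05). Against the 0.5 h array, the 7 h value was 0.64 units too, within the wider 2 SD of that pair (0.68). Nfyb, its partner, was at 0.27, 0.10, -0.01 and -0.07 units in order of time. Rfxap and Rfxank, subunits of the X-box-binding RFX complex, were at 0.18 and -0.01 units at 7 h, and neither passed 2 SD at any time. Thus 1 of 4 was above 2 SD at 7 h, beside 3.11% of all genes. At the other times 0 were above, and 0 were below at any time.

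Among regulators of CIITA and interferon-gamma signalling (5 of 18 measured), Irf1, a transcription factor that interferons induce and that acts on a Ciita promoter, was above 2 SD at all 4 times. Its change from 0 h, on 1 probe, was 0.64, 0.83, 0.71 and 0.74 units in order of time. All 4 changes share the same 0 h value, -0.26 units. From the 0.5 h array on it was level, at 0.19, 0.06 and 0.10 units from that array on the later ones, each within 2 SD of its pair of arrays (0.65, 0.68 and 0.65). At 2 h, quantile normalization (0.65) and cyclic loess (0.57) put the change from 0 h inside 2 SD. Ifngr1, a chain of the interferon-gamma receptor, was at -0.02, -0.20, 0.09 and -0.12 units, Socs1, an inhibitor of JAK kinases, at 0.12, 0.13, -0.11 and -0.11, and the transcription factor gene Usf1 at 0.00, -0.19, -0.09 and -0.28. These and the gene mean of Jak1 lay within 2 SD throughout. The 2 probes of Jak1 had opposite signs at all 4 times. In order of time, probe 403 was at -0.27, -0.43, -0.16 and -0.36 units and probe 10518 at 0.10, 0.28, 0.27 and 0.23. Of the 5 genes, 1 lay above 2 SD at each time, beside 4.3%, 4.84%, 3.11% and 4.04% of all genes. Below it lay 0 of 5 at each time, beside 0.357%, 0.23%, 3.35% and 2.25% of all genes.

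The endosomal genes that prepare peptides and trim the invariant chain (9 of 11 measured) went both ways. Ctss, encoding cathepsin S, which makes the last cuts in the invariant chain, was at -0.69 units at 0.5 h (-2.54 SD), -0.02 at 2 h, 0.02 at 7 h and 0.55 at 21 h (2.37 SD). At 0.5 h it was at -1.43 units with quantile normalization, and at 21 h cyclic loess put it at 0.20, within the spread, and the 0.5 h baseline at 1.25. Ctsh, a cathepsin gene, was higher by 0.61 units at 21 h (2.63 SD), and by 0.50 against the 0.5 h array, within the 2 SD of that pair (0.65). Ctsz was higher by 0.54 units at 7 h (2.34 SD), on 2 probes of 0.53 and 0.55, and Ctsk was at -0.57 (-2.46 SD). The call of Ctsz ended without centring (0.46) and with the 0.5 h baseline (0.43), and that of Ctsk after subtraction of the running median (-0.43). Against the 0.5 h array Ctsk was at -0.64, also within the 2 SD of that pair. Ctss, Ctsh and Ctsk had 1 probe each. The gene means of Ctsb, Ctsl and Ifi30, a thiol reductase gene, stayed within 2 SD, with changes from -0.27 to 0.25 units. Single probes disagreed. Those of Ctsl were at 0.15, -0.48 (past 2 SD) and -0.19 units at 7 h, and at 0.54 (past 2 SD), 0.08 and 0.14 at 21 h. Those of Ctsb were at 0.05 and -0.58 at 2 h. By time, 0, 0, 1 and 2 of the 9 lay above 2 SD, beside 4.3%, 4.84%, 3.11% and 4.04% of all genes. Below it lay 1, 0, 1 and 0, beside 0.357%, 0.23%, 3.35% and 2.25% of all genes. The list medians were 0.05, -0.02, -0.02 and -0.04 units.

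Genes of class II trafficking and turnover (6 of 12 measured) lay within 2 SD of a single probe at every time. Sppl2a, the protease that clears the invariant-chain stub, was at -0.47 units at 0.5 h with its 4 probes from -0.57 to -0.33, and at -0.02, -0.03 and -0.03 later. The limit was not narrowed for its mean of 4 probes, so whether the 0.5 h value passed their own disagreement was not tested. The tetraspanin genes Cd9 and Cd81 were at -0.29 and -0.15 units at 21 h. All 6 were negative at 0.5 and 2 h, with medians of -0.11 and -0.07 units. Of all 8692 genes, 4078 and 3938 were negative at these times. Both times use the same 0 h array. At 2 h the median was 0.06 units against the 0.5 h array and 0.01 against the mean of both early arrays. Of 10 co-stimulation genes 1 was measured, Cd48, at -0.01, -0.16, -0.01 and 0.13 units; Cd80, Cd86 and Cd40 were not analysed here.

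**Figure D4:**
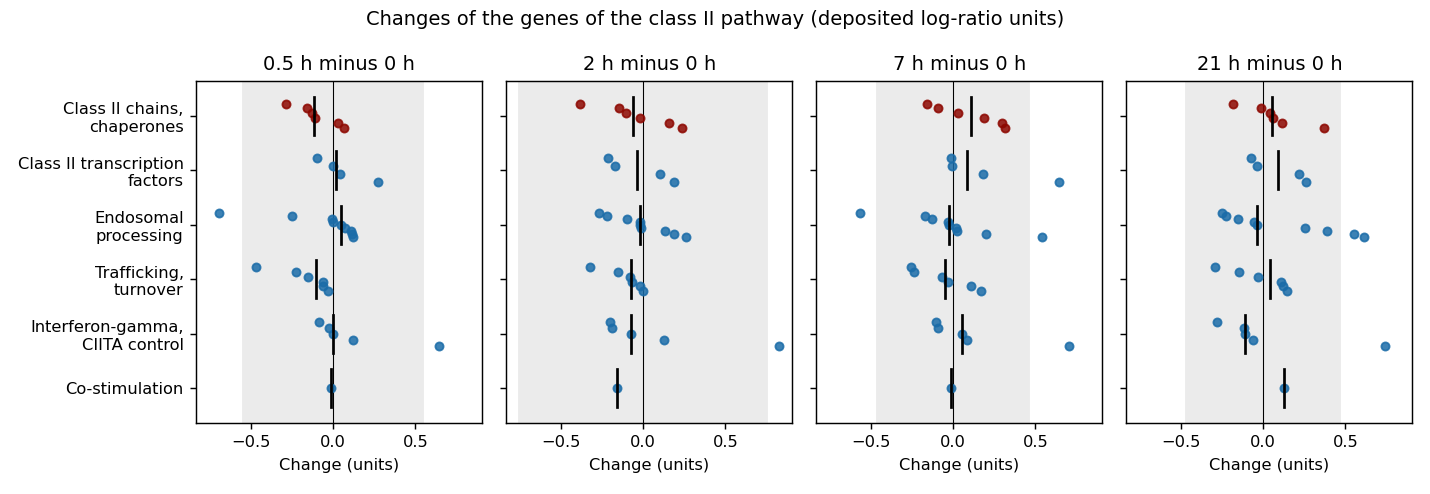
Change from 0 h (deposited log-ratio units, x axis) of each measured gene in 6 lists of the class II pathway (rows) at 4 times (panels); black bars are list medians and the grey area is 2 SD of probe disagreement. The 6 class II genes (red) lie inside it at every time, and Irf1, the rightmost point of the interferon-gamma list, outside it at every time in the values plotted, though at 2 h not under quantile normalization or cyclic loess.

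Other class II-bearing cells were looked for by their markers. Of the dendritic-cell list 3 of 15 were measured and of the B-cell list 6 of 15. Their median ratios ran from -0.10 to 0.05 and from -0.17 to -0.04 units over the arrays. At 0 h single B-cell markers ran from -0.72 to 0.22 units, so their median says little about B-cell content. From 0 h, 1 marker was past 2 SD, Cd79b of B cells at 7 h (0.61 units, named after its value was seen). On that array 3.11% of all genes lay above 2 SD. In bulk RNA, a change in the share of cells cannot be told apart from a change per cell.

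By Pearson correlation over the 5 arrays, with genes of between 0.5 and 2 times its range considered, the courses most like that of H2-DMb2 were those of Ash2l (r = 0.999), Htra2 (0.998), Pheta1 (0.997), Ghrl (0.994), Wdr45b (0.992) and Dmxl1 (0.990). Of 5921 genes considered, 74 reached 0.95, and all share the same 5 arrays and reference. H2-DMb2 itself had 0 of 10 differences between arrays past 2 SD. Its course was thus not told apart from probe disagreement, and whether these genes share regulation was not tested. No class II gene was among the 6: r with H2-DMb2 was 0.71 for H2-DMa, 0.52 for Cd74, 0.26 for H2-DMb1, -0.29 for H2-Eb1 and -0.70 for H2-Aa, over 5 arrays.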

How the data were processed

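For each of 5 two-channel arrays the authors deposited a table of signed log ratios by probe, made, per the labels, from amino-allyl-labelled cDNA of macrophages and of embryos. The sources used here do not give log base, direction, background correction or normalization. Of 19828 probes, 14759 had 1 gene in the platform annotation, 170 several and 4899 none listed; 14628 gene IDs were found in RefSeq, which changed 0 symbols. Array medians over the 18391 probes with 5 values were subtracted (deposited medians from -0.02 to 0.12). Probes were averaged by gene, and 0 h was subtracted. Arrays correlated at 0.44 to 0.84.

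Spread was calculated by taking, for each gene with several probes, how much the changes of its first 2 by number differed, and dividing the SD of these differences by the square root of 2. It was applied to gene means without regard to their number of probes. With 1 array per time no test was run, and genes were counted past 1 unit or 2 SD. Percentiles count genes with a lower value. The members and lists were chosen with earlier results of these data known. Named were all members, genes of the pathway lists past 1 unit or 2 SD and up to 3 others of each (marker lists apart; from class I only neighbours of H2-DMb2), measured neighbours of H2-DMb2 and the 6 most correlated genes. Calculations were tested on simulated data. Python 3.11.15, numpy 2.4.6, pandas 2.3.3, R 4.3.3 and limma 3.58.1 were used. Alternatives were no centring, quantile normalization, cyclic loess, a running median over 100 probes on each side along the probe numbers, other baselines, probes with values on the 2 arrays compared, single probes, genes with more than 1 probe, a threshold of 1.5 units and a spread from the median absolute deviation.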

Additional observations from a re-analysis of the deposited data

How the results depend on the processing

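The 24 changes of class II genes from 0 h (6 genes at 4 times) moved by more than 1 SD in 3 of 156 recalculations. Their sign held under every alternative for 11 of 24 and turned under at least 1 for 13, single probes not counted. H2-DMb2 was negative at 0.5 h (-0.29 to -0.22) and 2 h (-0.38 to -0.10) in every setting run. With the 0.5 h array as baseline, however, it was at 0.12 units at 7 h and 0.10 at 21 h. No other baseline was run at 0.5 h for any gene, so signs there rest on the 0 h array. H2-DMb1 was positive in every setting at 7 h (0.14 to 0.42) and 21 h (0.16 to 0.48). The pathway genes past 2 SD, with other baselines judged by their own spread, lost that standing in 21 of 80 recalculations: Nfya (0.64), Tap2 (0.58) and Ctsh (0.50) from the 0.5 h array, Irf1 at 2 h with quantile normalization (0.65) and cyclic loess (0.57) and after 0.5 h with other baselines, Psmb9 at 2 h (0.69 with the running median removed, 0.12 with quantile normalization, -0.0051 with cyclic loess), Ctsk (-0.43, running median; -0.64 from 0.5 h), Ctsz (0.46 without centring, 0.43 from 0.5 h, 0.49 from both early arrays) and Ctss at 21 h (0.44, running median; 0.20, cyclic loess). The median of the 6 genes was 0.21 at 7 h with the 0.5 h baseline and -0.10 at 21 h with the running median removed. The counts of genes at least 1 unit from 0 h, 130, 244, 35 and 27 in order of time, were 54, 91, 102 and 85 with quantile normalization, 118 at 2 h with cyclic loess, 277 at 7 h and 247 at 21 h with the 0.5 h baseline, 133 and 98 with the mean of both early arrays as baseline, and 60 and 47 with probes valued on the 2 arrays compared. Counts were 12, 40, 4 and 1 for genes with more than 1 probe and 55, 83, 5 and 5 at 1.5 units, which follow from fewer genes and a higher threshold. The cause of the other shifts was not tested. No paired analysis was possible because each time has 1 array. The table gives ratios alone, so dim and bright spots weighed alike.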
